A study of Mus musculus with 20 samples.

Results

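The genes described here are the melanocyte genes Tyr, Tyrp1, Dct, Pmel, Mlana, Oca2, Slc45a2, Mitf, Sox10 and Ednrb, 10 of the 18193 genes that the Affymetrix MOE430 2.0 array measured under a single gene name. They were chosen by name, and 20 of the 45037 probesets tested are annotated to 1 of them alone. Where a gene had several, the brightest on average was used, and the others served as a check. Values are the authors' RMA expression values on a log2 scale, so that a difference of 1 is a doubling.

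All mice were of the FVB strain. The normal skin was of 5 samples from mice aged 2 months. The tumors were epidermal carcinomas of mice in which k14Cre, a recombinase driven by the promoter of a basal keratin, deletes both floxed alleles of Trp53 (Trp53ΔEC, 7 tumors) or those of both Rb and Trp53 (RbΔEC; Trp53ΔEC, 8 tumors). Every tumor group thus lacks p53 in the keratinocytes, and the Cre is not directed to melanocytes. By histology 6 tumors were poorly differentiated (2 Trp53ΔEC and 4 RbΔEC; Trp53ΔEC), 4 were mixed (3 and 1), 3 were undifferentiated (1 and 2) and 2 were spindle cell carcinomas (1 and 1), and the last 2 kinds form the undifferentiated/spindle class. The labels give no age for the tumors and no mouse for each sample, so age and tumor growth cannot be told apart, and p-values rest on the spread among the samples alone, which may be technical.

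Melanocytes come from the neural crest and settle in the basal epidermis and the hair follicle, where they hand pigment to keratinocytes. The transcription factor Mitf, itself switched on by Sox10, drives the genes of the melanosome, the organelle in which pigment is made. Tyrosinase (Tyr) starts melanin synthesis, Dct and Tyrp1 act after it, Pmel forms the fibrils on which melanin is laid down, and Oca2 and Slc45a2 are transport proteins that set conditions inside the melanosome. FVB is an albino strain with an inactive Tyr product, so that its melanocytes are present and unpigmented. The receptor Ednrb answers endothelins and guides melanocyte precursors, but it is also made by endothelium and other skin cells. Sox10 is also a factor of Schwann cells and of some glands, and Mitf of mast cells, macrophages and osteoclasts.

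Of the pigment genes, 3 carry the same motif for Mitf, the M-box TCATGTGCT, in their promoters, and are shown because Mitf and its targets are followed side by side. The sequences are from RefSeq on GRCm38.p6, and the window searched runs from 250 bases before each start of transcription to 50 after it. Each is given on the strand of its gene, with the M-box in capitals:
Tyr (chr7:87493513-87493579, minus strand): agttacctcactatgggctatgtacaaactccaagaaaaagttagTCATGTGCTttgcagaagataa
Tyrp1 (chr4:80834121-80834212, plus strand): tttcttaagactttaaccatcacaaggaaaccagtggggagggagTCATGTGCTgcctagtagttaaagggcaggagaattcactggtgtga
Dct (chr14:118052344-118052442, minus strand): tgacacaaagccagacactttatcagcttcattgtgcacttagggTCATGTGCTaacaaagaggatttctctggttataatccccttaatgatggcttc

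The M-box begins 22 bases before the annotated start in Tyr, 47 before it in Tyrp1 and 151 before it in Dct. Searched on both strands, it is in 134 of 32851 RefSeq windows of this length (0.408%), and the shorter TCATGTG, which lies within it, is in 1239 (3.77%). The window of Dct holds TCATGTG a second time, on the other strand. Promoter windows were at hand for 6 of the 10 genes, and those of Oca2, Ednrb and Mitf (3 windows) hold neither string. Pmel, Mlana, Slc45a2 and Sox10 had no window. A match is a description of the letters and not of a binding site.

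Most melanocyte genes were lower in tumors than in normal skin. In 15 tumors against 5 skin samples, 7 of the 10 genes fell and none rose at an adjusted p under 0.05 (limma, Benjamini-Hochberg over 18193 genes; at an unadjusted p under 0.05 also 7 and 0). Over all genes 18% fell and 17.7% rose. The median log2 fold change of the 10 genes was −1.37, and that of all genes was 0.016. Dct fell furthest, 10.96-fold, and the others that fell were Tyrp1, Tyr, Pmel, Mlana, Mitf and Ednrb. Tyr counts among the 7 although it was below the background of the arrays on all 20. With the median of its probesets its direction turned (0.090), which leaves 6 others. Of these, Ednrb was no longer called with the median of its probesets (−0.30, adjusted p = 0.507, limma). In 3 genes, Dct, Pmel and Mitf, every tumor lay below every skin sample, as it did in 6.38% of all genes. In RNA of whole tissue, fewer melanocytes and less RNA per melanocyte cannot be told apart.

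**Figure D1:**
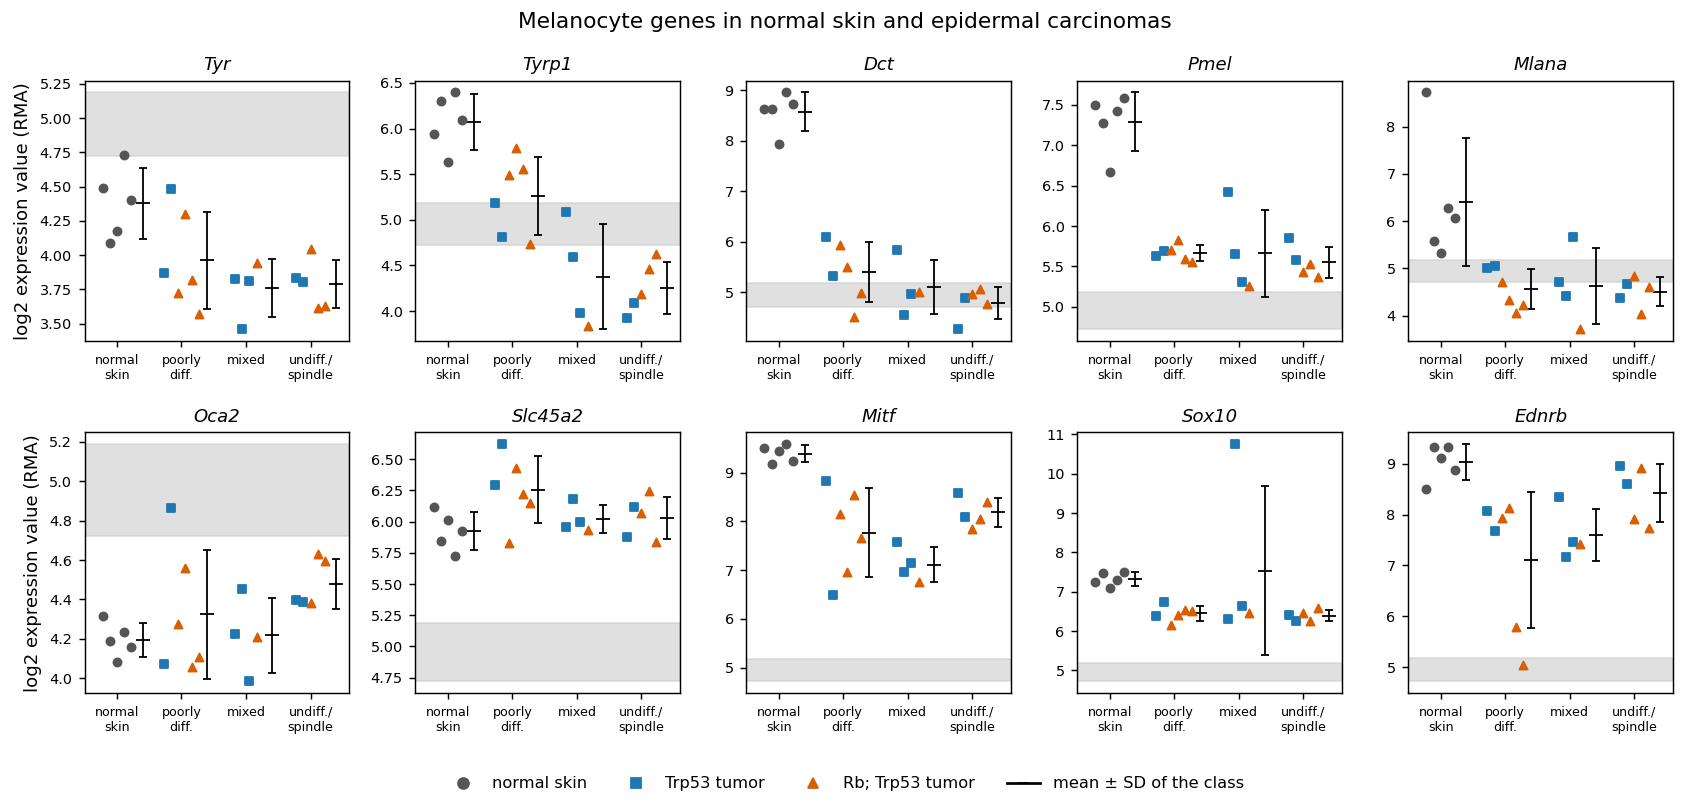
Log2 expression value (RMA, vertical axis, scaled to each gene) of the 10 melanocyte genes in each of the 20 arrays by histological class, with the class mean and SD. The grey band is the range over arrays of the floor set by odorant receptor probesets (4.72 to 5.19): Tyr and Oca2 lie under their own array's floor on all 20 arrays, and Dct, Pmel and Mitf are lower in all 15 tumors than in any skin sample.

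Whether a gene was above background was read from 43 probesets of odorant receptors, genes silent in skin. Their 95th percentile was taken as the floor of each array and lay between 4.72 and 5.19. Of the 10 genes, 8 were above it in every skin sample and 5 to 8 in each tumor. Pmel, Mitf, Slc45a2, Sox10 and Ednrb were above it on all 20 arrays, Dct on 15, Tyrp1 on 10 and Mlana on 8. Tyr and Oca2 were on none, so that the defining enzyme of melanocytes is not measured above background here, and the pattern in skin rests on the other genes.

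Among the enzymes, Dct, the dopachrome tautomerase, had the clearest change. Its levels in skin were 8.62, 8.63, 7.93, 8.96 and 8.72. Poorly differentiated tumors ran from 4.52 to 6.09 with a median of 5.42, the mixed ones were at 5.84, 4.56, 4.98 and 5.02, and the undifferentiated/spindle ones at 4.27, 4.88, 4.96, 5.07 and 4.77. All 15 tumors were thus far below the lowest skin sample, and 5 of them were not above the floor. The mean went from 8.57 ± 0.38 (SD, n = 5) in skin to 5.12 ± 0.53 (SD, n = 15) in tumors, which is −3.45 on the log2 scale (standard error, SE, 0.25; limma's adjusted p = 1.57e-09). Against skin it was −3.17 in poorly differentiated, −3.47 in mixed and −3.78 in undifferentiated/spindle tumors, all past the test.

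Tyrp1, whose product acts on an intermediate of melanin, was lower in tumors of every class. In skin it was at 5.94, 6.30, 5.63, 6.40 and 6.10. It ran from 4.73 to 5.79 in poorly differentiated tumors, with a median of 5.34. Mixed tumors lay at 5.08, 4.59, 3.98 and 3.84, and undifferentiated/spindle tumors at 3.92, 4.08, 4.18, 4.46 and 4.63. Only 1 tumor, RbΔEC; Trp53ΔEC tumor 6 at 5.79, reached the range of skin, and none of the undifferentiated/spindle tumors was above the floor. The log2 fold change of all tumors was −1.38 (SE 0.29, adjusted p = 0.000742, limma). It was −0.81 in poorly differentiated, −1.70 in mixed and −1.82 in undifferentiated/spindle tumors, all past the test. The probeset used is of the kind that may bind other transcripts, and the other 2 probesets of Tyrp1 fell as well, by 2.66 and by 1.55 on the log2 scale.

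Tyr itself, below the floor throughout, was at 4.38 ± 0.26 (SD, n = 5) in skin and 3.85 ± 0.27 (SD, n = 15) in tumors, a log2 fold change of −0.53 (adjusted p = 0.00536, limma). Its other 2 probesets had differences of 0.19 and 0.062 and were not called, and the median of the 3 probesets turned the direction, to 0.090. No change of Tyr can be read from values at this level.

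Pmel, the protein of the melanosome fibril, was at 7.50, 7.27, 6.67, 7.42 and 7.58 in skin. In poorly differentiated tumors it ran from 5.55 to 5.82, with a median of 5.66, so that these 6 tumors hardly differed among themselves. The undifferentiated/spindle tumors lay close by, at 5.85, 5.58, 5.43, 5.53 and 5.36. Among the mixed tumors 1, Trp53ΔEC tumor 3, stood higher at 6.42, and the others were at 5.66, 5.31 and 5.26. Its Dct (5.84) was the third highest among tumors. The log2 fold change of Pmel was −1.66 (SE 0.15, adjusted p = 5.33e-08, limma), and that of each class lay between −1.74 and −1.62.

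Mlana, the melanosome protein also known as Melan-A, was uneven in normal skin. Skin sample 1 was at 8.72 and the others at 5.59, 5.34, 6.28 and 6.06. Tumors ran from 3.71 to 5.66, with a median of 4.61, and only Trp53ΔEC tumor 7 reached the lower end of skin. The log2 fold change was −1.84 (SE 0.38, adjusted p = 0.000753, limma), and without skin sample 1 it was −1.25 (adjusted p = 0.00099). Dct, Pmel and Tyrp1 of skin sample 1 lay within the range of the other skin samples. Ctsk, the protease cathepsin K that osteoclasts and fibroblasts make, was also higher in that sample (13.1) than on the 19 other arrays (up to 11.6). The unequal-variance test did not call Mlana (adjusted p = 0.0731).

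Neither transporter was called over all tumors. Oca2 was below the floor on every array, at 4.20 ± 0.087 (SD, n = 5) in skin and 4.35 ± 0.25 (SD, n = 15) in tumors, and was not called (log2 fold change 0.15, SE 0.12, adjusted p = 0.348, limma). Slc45a2 was above the floor on every array, at 6.12, 5.85, 6.01, 5.72 and 5.92 in skin and from 5.83 to 6.62 in tumors. Its difference of 0.19 (SE 0.11, adjusted p = 0.203) was not called for all tumors. In poorly differentiated tumors it was called higher, by 0.33 (adjusted p = 0.0421), but not with each array centred on its median (0.22, adjusted p = 0.177), and its other probeset was not called. That call was also lost without any 1 of skin samples 2 to 5, Trp53ΔEC tumors 4 and 6 or RbΔEC; Trp53ΔEC tumors 6 and 7, at adjusted p-values of up to 0.111. Slc45a2 did not follow the fall of Dct, Pmel and Tyrp1, and no change of Oca2 can be read from values under the floor.

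**Figure D2:**
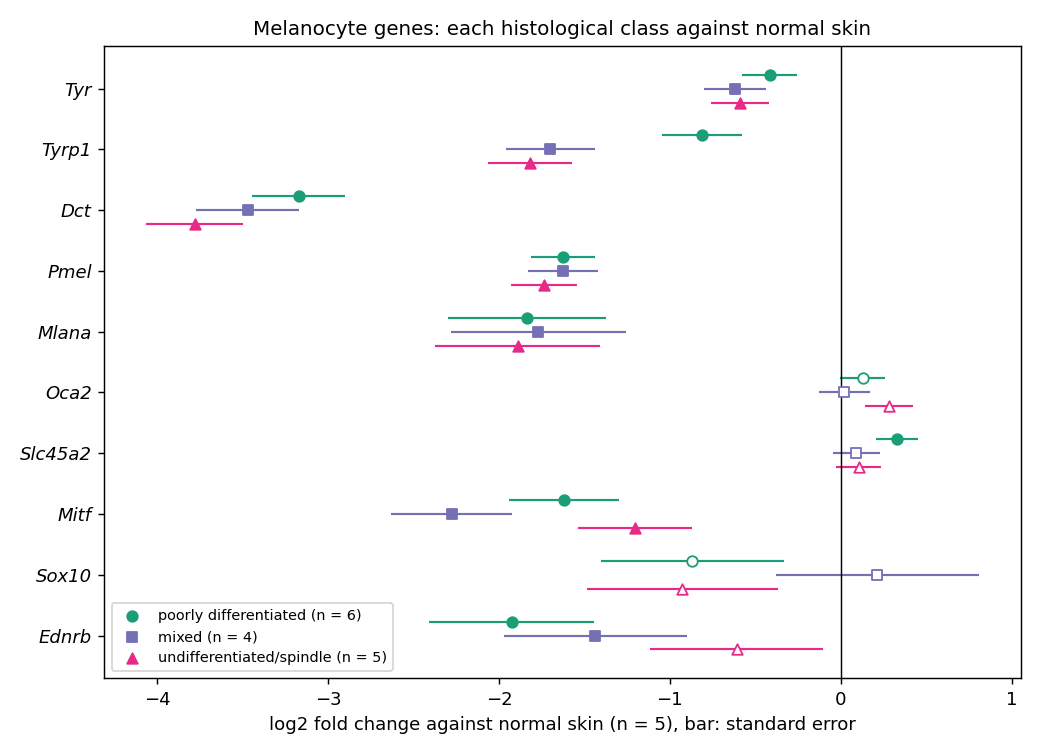
Log2 fold change of the 10 melanocyte genes in each histological class against the same 5 samples of normal skin (horizontal axis), with bars for 1 SE; points are filled where limma's adjusted p was under 0.05 and open elsewhere. Dct lies between −3.78 and −3.17 in the 3 classes, while Ednrb lies at −1.93 in poorly differentiated and at −0.61 in undifferentiated/spindle tumors.

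The classes share the skin samples, so their values are given side by side only. In poorly differentiated tumors 7 of the 10 genes fell and 1 rose, where 19.6% and 19.2% of all genes did. In mixed tumors 7 fell and none rose (21.5% and 21.9% of all genes; at an unadjusted p under 0.05 also 7 and 0). In undifferentiated/spindle tumors 6 fell and none rose (20.2% and 22%; unadjusted also 6 and 0, limma). Oca2 and Sox10 passed in no class, Slc45a2 only in the poorly differentiated one, and Ednrb was the gene that did not pass in undifferentiated/spindle tumors. In poorly differentiated tumors the call of Tyr, at an adjusted p of 0.0491, was lost when any 1 of 15 samples was left out.

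Mitf, the regulator of the pigment genes, was at 9.51, 9.17, 9.45, 9.58 and 9.24 in skin. It ran from 6.49 to 8.82 in poorly differentiated tumors, with a median of 7.91. Mixed tumors were at 7.59, 6.97, 7.14 and 6.75, and undifferentiated/spindle ones at 8.57, 8.08, 7.84, 8.04 and 8.40. Every tumor was below every skin sample, and the mixed class had the lowest mean (7.11 ± 0.35, SD, n = 4). The log2 fold change over all tumors was −1.66 (SE 0.32, adjusted p = 0.000422, limma). By class it was −1.62 in poorly differentiated, −2.28 in mixed and −1.20 in undifferentiated/spindle tumors, all past the test.

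The second probeset of Mitf did not follow. It was at 4.98 ± 0.50 in skin (SD, n = 5), with values down to 4.28 that lie under the floor, and it differed by −0.15 in tumors (adjusted p = 0.65, limma over all probesets). With the median of both probesets the change in undifferentiated/spindle tumors was −0.55 and no longer passed (adjusted p = 0.0988). Other cells with Mitf were read from their own genes. The summed level of 10 macrophage and osteoclast genes was 13.8 to 14.2 in skin, 11.4 to 14.5 in poorly differentiated, 11.6 to 12.1 in mixed and 13.8 to 14.4 in undifferentiated/spindle tumors. The 7 mast cell genes summed to between 10.5 and 11.3 in skin, 8.79 and 12.04 in poorly differentiated, 7.73 and 9.82 in mixed and 7.87 and 10.5 in undifferentiated/spindle tumors. Of this list 2 genes, Hdc and Fcer1a, were called higher in poorly differentiated tumors than in skin (2.71 and 2.2997), and 1 was called lower. Of all genes 19.2% were higher and 19.6% lower there. In mixed and in undifferentiated/spindle tumors none of the 7 was higher and 3 were lower (21.5% and 20.2% of all genes were lower). Cpa3, a mast cell protease, was at 8.88 to 9.66 in skin and 4.41 to 7.86 in mixed tumors. The part of macrophages and mast cells in the fall of Mitf was not tested.

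Sox10, which switches on Mitf, was by the probeset used lower than skin in 14 tumors and far higher in 1. Skin was at 7.24, 7.48, 7.09, 7.29 and 7.49. Poorly differentiated tumors ran from 6.16 to 6.73 with a median of 6.45, and undifferentiated/spindle tumors lay at 6.40, 6.25, 6.47, 6.25 and 6.60. Of the mixed tumors 3 were at 6.30, 6.63 and 6.47, and the fourth, Trp53ΔEC tumor 5, was at 10.75. All 3 probesets of Sox10 were highest in that tumor, at 10.75, 8.28 and 7.57, where no other array passed 7.49, 6.51 and 5.47. With it, the difference of tumors from skin was −0.60 (SE 0.49, adjusted p = 0.37, limma). Without it Sox10 was lower in 14 of 14 tumors, with a log2 fold change of −0.89 (adjusted p = 4.67e-07), and 8 of the 10 melanocyte genes fell. Its value in mixed tumors turned from 0.22 to −0.86 (adjusted p = 7.09e-05). In poorly differentiated tumors its value was −0.87 (adjusted p = 0.218) and in undifferentiated/spindle tumors −0.93 (adjusted p = 0.199), and limma called both once that tumor, which widens the spread that the classes share, was left out. The methods' t-test and the unequal-variance test called both, at adjusted p-values of at most 0.000512. These tests use only the samples of the class and of skin, so that Trp53ΔEC tumor 5, a mixed tumor, never entered them. All of these values are of the probeset used. The other 2 differed over all tumors by 0.011 and −0.33 and were called in no class, and in 1 of them the highest poorly differentiated tumor (6.51) lay above every skin sample (up to 6.48). The median of the 3 probesets differed by 0.0094.

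In Trp53ΔEC tumor 5 no pigment gene rose above the range of the other tumors as Sox10 did. Dct was at 4.56, Pmel at 5.66, Tyrp1 at 4.59, Mlana at 4.42 and Mitf at 6.97, each within that range. Tyr at 3.46 was the lowest of all arrays. Slc45a2 (6.18) was also within the range of the other tumors but above every skin sample (up to 6.12), and Oca2 (4.45) was under the floor. Mlph, a gene of melanosome transport, was at 7.09, the highest of all arrays (others up to 6.58). Kit, the receptor of melanoblasts, mast cells and other lineages, was at 12.1 in this tumor and at 5.73 to 8.85 on the other 19 arrays. Of the markers of Schwann cells, which also make Sox10, Cdh19 was at 3.65, S100b at 5.48 and Ngfr at 6.07, against up to 7.11, 6.95 and 8.33 in skin. Mal (6.61) and Ncam1 (7.87) lay within the range of skin, Mbp was at 8.04, and the 11 Schwann cell and nerve genes summed to 10.3, against 12.5 to 12.7 in skin. The part of Schwann cells in the Sox10 level of this tumor was not tested. Cpa3 of mast cells was at 4.41, the lowest of all 20 arrays.

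**Figure D3:**
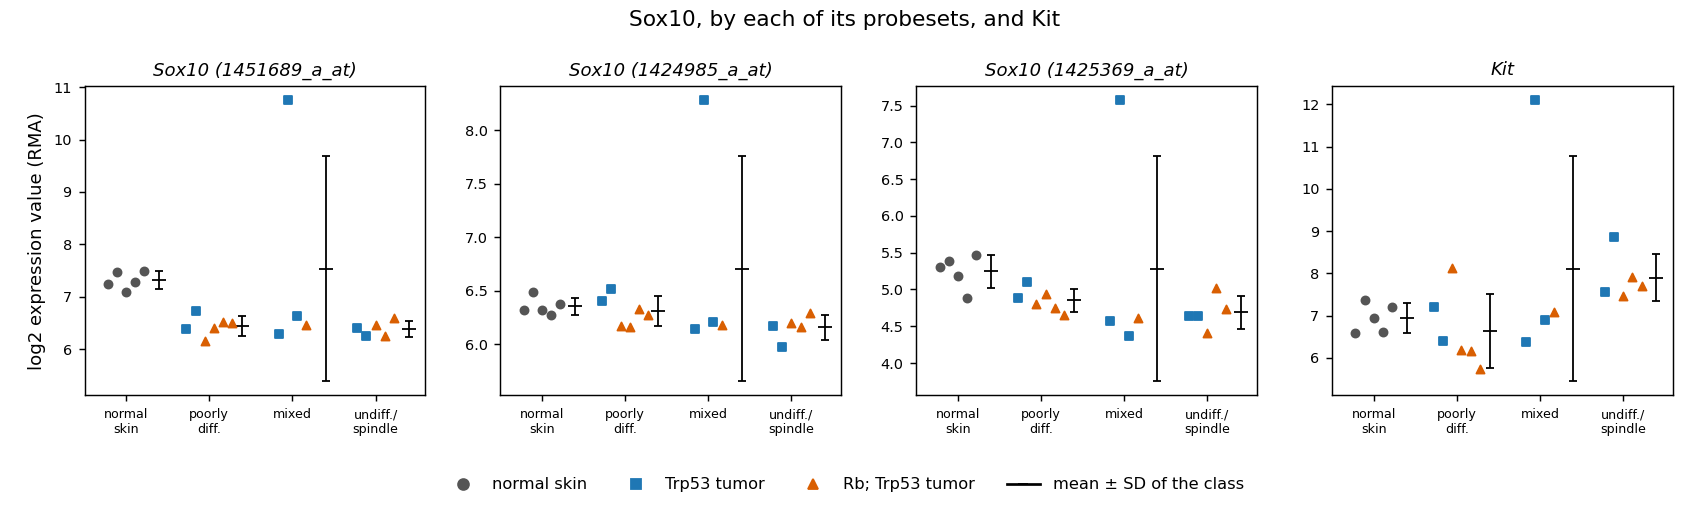
Log2 expression value (RMA, vertical axis, scaled to each panel) of Sox10 by each of its 3 probesets and of Kit in each of the 20 arrays by histological class, with the class mean and SD. A single mixed tumor, Trp53ΔEC tumor 5, is highest in all 4 panels, at 10.75 for the Sox10 probeset used and at 12.1 for Kit.

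Schwann cell and nerve genes were lower in tumors too. Of 11 such genes 7 fell and none rose in tumors against skin (18% and 17.7% of all genes), with a median of −0.67. Cdh19, an adhesion protein of Schwann cell precursors, changed by −2.27 on the log2 scale (adjusted p = 0.00543, limma), the sodium channel gene Scn7a one of −2.73, and the myelin genes Pmp22 and Mbp ones of −2.33 and −1.48. Their summed level was 12.5 to 12.7 in skin and 10.1 to 11.7 in poorly differentiated tumors. Ngfr and S100b were high in 2 mixed tumors, Trp53ΔEC tumor 7 (11.8 and 9.78) and RbΔEC; Trp53ΔEC tumor 4 (12.3 and 11.3), where Sox10 was at 6.63 and 6.47, no higher than in other tumors. Sox10 was not called lower over all tumors, and the part of Schwann cells in its levels was not tested.

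Ednrb, the endothelin receptor, was at 8.51, 9.33, 9.11, 9.34 and 8.88 in skin. Poorly differentiated tumors ran from 5.03 to 8.14 with a median of 7.81, and the lowest 2 were RbΔEC; Trp53ΔEC tumors 7 and 8 (5.79 and 5.03). Mixed tumors were at 8.34, 7.17, 7.47 and 7.42. The undifferentiated/spindle tumors were at 8.96, 8.61, 7.91, 8.92 and 7.74, and 3 of the 5 lay within the range of skin. The log2 fold change over all tumors was −1.36 (SE 0.47, adjusted p = 0.0298, limma). It was lost without skin sample 2, 3, 4 or 5, at adjusted p-values of 0.0512 to 0.0732. The call in mixed tumors was lost without the same skin samples and without 3 of the 4 mixed tumors (up to 0.0867). Its other 2 probesets differed by 0.044 and −0.30 and were not called, so that the fall of Ednrb rests on 1 of 3 probesets. In undifferentiated/spindle tumors against skin 1 of the other 2 was called higher over all probesets (0.82, adjusted p = 0.0362), where the probeset used had −0.61.

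**Figure D4:**
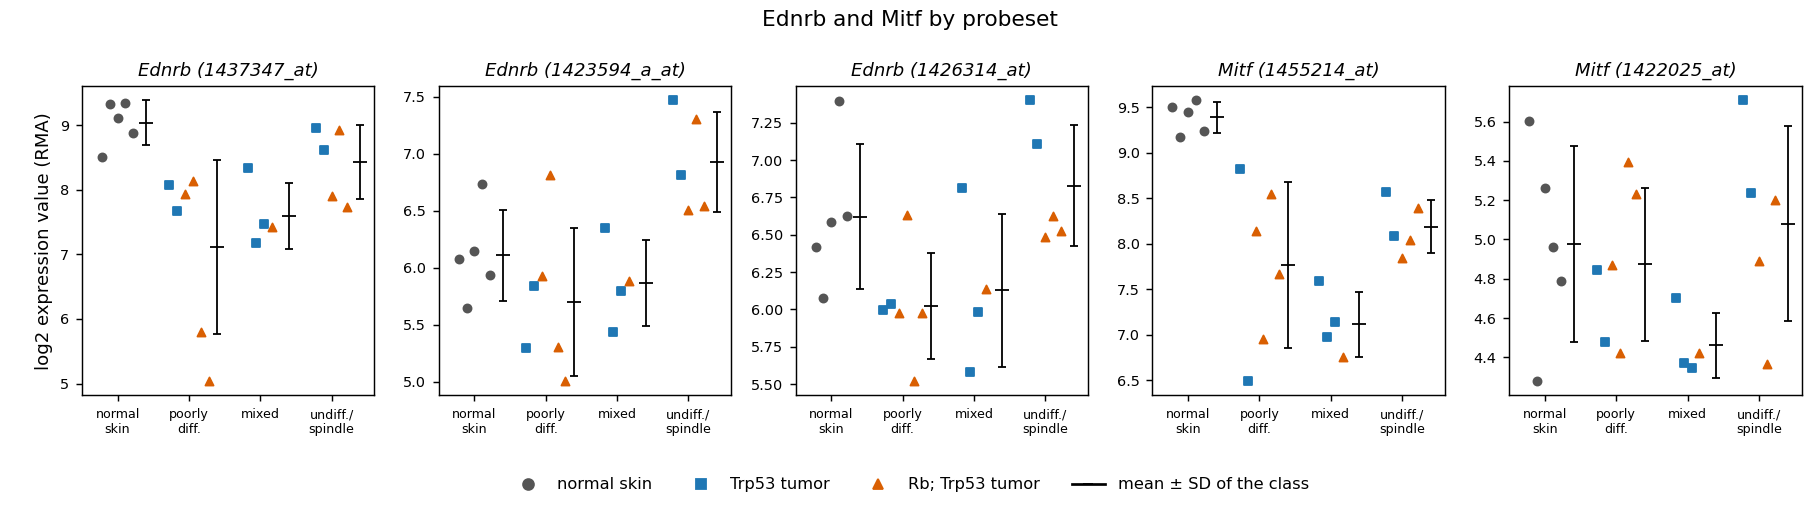
Log2 expression value (RMA, vertical axis, scaled to each panel) of Ednrb by its 3 probesets and of Mitf by its 2 probesets in each of the 20 arrays by histological class, with the class mean and SD. The first Ednrb and the first Mitf panel are the probesets used: Ednrb there is lower in poorly differentiated tumors (7.11 ± 1.34) than in skin (9.03 ± 0.35), while the other probesets of both genes overlap with skin.

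The partners of the receptors were counted beside all genes, of which 17.7% rose and 18% fell over all tumors. Of 5 endothelin genes, 1 rose and 1 fell in tumors against skin, which is near those shares. Edn3, the ligand that melanocyte precursors need, changed by −0.58 (adjusted p = 0.00248, limma), and Ece2, a converting enzyme, one of 1.61 (adjusted p = 0.000408). Of 7 ligands of melanocyte receptors, Edn3 was the 1 that fell and none rose, while 2 were higher at an unadjusted p under 0.05. Of 13 further receptors and transcription factors, 5 fell and none rose, with a median of 0.0005. Irf4, a factor that acts with Mitf on Tyr in melanocytes and that lymphocytes also make, had −2.95 (adjusted p = 1.77e-05), Zeb2 −2.05, the Mitf relative Tfeb −0.79 and the melanocortin receptor gene Mc1r −0.62.

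Over all tumors, the general machinery of melanosome biogenesis and transport did not move with the pigment genes. Of its 20 genes, many of which serve lysosome-related organelles in other cells too, 1 rose and none fell, with a median of −0.0005. At an unadjusted p under 0.05, 1 was higher and 3 were lower. The gene that rose was Slc7a11, a cystine transporter (log2 fold change 1.92, adjusted p = 0.00429, limma). It went from 4.15 to 4.39 in skin to as much as 8.04 in tumors. Its skin values lay under the floors of the skin arrays (4.79 to 5.12), so that this rise starts from background. Mlph, which links melanosomes to the motor that carries them, had −0.82 (adjusted p = 0.091). Trpm1, a channel whose gene is a target of Mitf, had −0.27 (adjusted p = 0.0873). By class against skin, 2 of the 20 rose and 3 fell in poorly differentiated, 1 and 3 in mixed and 4 and 3 in undifferentiated/spindle tumors. Of all genes 19.2% to 22% rose and 19.6% to 21.5% fell in these classes.

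Genes of the skin structures that house melanocytes were counted as well. Over all tumors 18% of all genes fell and 17.7% rose. Of 7 genes of the hair follicle bulge, 4 fell and none rose, with Krt15, a bulge keratin, at 13.6 to 13.97 in skin and at 4.85 to 11.7 in tumors (log2 fold change −6.01, adjusted p = 6.43e-05, limma). Of 19 genes of the hair matrix and shaft, where follicular melanocytes work, 2 rose and 1 fell, with a median of 0.42. Their summed level was 9.70 to 10.2 in skin (median 9.95), 10.02 to 12.3 in poorly differentiated (median 11.01), 9.56 to 10.05 in mixed (median 9.81) and 9.36 to 12.7 in undifferentiated/spindle tumors (median 9.48). Of 8 keratinocyte genes 1, Krt10, fell and none rose over all tumors. Their sum was 15.5 to 15.8 in skin and 15.4 to 16.2 in poorly differentiated tumors. It was lower in mixed (9.86 to 14.1) and undifferentiated/spindle tumors (8.48 to 13.3). Against skin 7 of the 8 genes fell in mixed and all 8 in undifferentiated/spindle tumors, where 21.5% and 20.2% of all genes did. Of 7 dermal fibroblast genes, 4 fell and none rose over all tumors (Dpt −4.004 and Dcn −2.80). Whether any of these lists has a part in the fall of the melanocyte genes was not tested.

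Undifferentiated/spindle carcinomas have lost the epithelial form that poorly differentiated ones still show. Of the 10 genes 1, Tyrp1, was lower in the 5 undifferentiated/spindle than in the 6 poorly differentiated tumors, and none was higher (at an unadjusted p under 0.05, 2 and 1, limma). Over all genes 9.9% were lower and 12.7% higher, so that the share of lower melanocyte genes was near the background. Tyrp1 was lower in 5 of 5 tumors, at 4.26 ± 0.29 (SD, n = 5) against 5.26 ± 0.43 (SD, n = 6), a log2 fold change of −1.01 (SE 0.21, adjusted p = 0.00523). Its values in undifferentiated/spindle tumors lay under the floor, 1 of its other probesets was also called lower (−0.86) and the remaining 1 was not (−0.26). With the median of its 3 probesets the difference was −0.41 and did not pass (adjusted p = 0.249). Dct had −0.61 (adjusted p = 0.138), and without RbΔEC; Trp53ΔEC tumor 7 it passed with −0.78 (adjusted p = 0.0348).

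Ednrb ran the other way. Its probeset used was higher by 1.32 in undifferentiated/spindle tumors without passing the test (SE 0.58, adjusted p = 0.135, limma), and its other 2 were called higher over all probesets, by 1.23 (adjusted p = 0.0181) and 0.80 (adjusted p = 0.023). With the median of the 3 probesets the difference was 1.09 (adjusted p = 0.0207). Endothelial genes, whose cells also make Ednrb, moved in the same direction. Of 10 such genes 6 rose and none fell, where 12.7% and 9.9% of all genes did. Their summed level was 11.2 to 11.9 in undifferentiated/spindle and 10.1 to 11.1 in poorly differentiated tumors, and Cdh5, the cadherin of endothelium, was lowest of all arrays in RbΔEC; Trp53ΔEC tumor 8 (5.53), where Ednrb was lowest as well. Macrophage genes also rose, 4 of 10 with none lower. The part of endothelium in the difference of Ednrb was not tested. RNA quality moved with grade too, since the log2 difference between the 3′ and the 5′ probesets of the Actb control was 0.24 to 0.38 in undifferentiated/spindle, 0.42 to 0.82 in poorly differentiated tumors and 0.50 to 1.19 in skin.

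Genes around the pigment pathway were compared by grade as well. Of the 20 melanosome genes, 4 rose and 2 fell from poorly differentiated to undifferentiated/spindle tumors, where 12.7% and 9.9% of all genes did. Rab38, a GTPase that carries Tyr and Tyrp1 to the melanosome, was at 8.79 to 8.99 in skin, 9.28 to 10.4 in poorly differentiated and 5.81 to 6.84 in undifferentiated/spindle tumors (log2 fold change −3.49, adjusted p = 1.30e-06, limma). Rab27a fell too (−1.36), and Hps3 (0.85) and the motor gene Myo5a (0.74) rose. Of the 13 receptors and factors, Kit (1.26) rose, and Erbb3 (−4.51), Tfap2a (−2.81) and Snai2 (−1.51) fell. Of the ligands, Hgf (2.47) and Kitl (1.38), the ligand of Kit, rose and Edn1 (−1.64) and Edn2 (−1.003) fell. Many of these genes are also used by keratinocytes or stroma, and all 8 keratinocyte genes fell in the same comparison.

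Between the genotypes no melanocyte gene was called. In 8 RbΔEC; Trp53ΔEC against 7 Trp53ΔEC tumors none of the 10 genes was higher or lower, where 0.011% and 0.022% of all genes were. At an unadjusted p under 0.05, 1 was lower. This was Mlana, at 4.32 ± 0.39 (SD, n = 8) and 4.84 ± 0.45 (SD, n = 7), a difference of −0.52 (SE 0.21, adjusted p = 0.869, limma). The differences of the other genes ran from −0.68 (Ednrb, SE 0.51) to 0.31 (Tyrp1, SE 0.31). That of Dct was −0.040 (SE 0.27) and that of Mitf 0.13 (SE 0.37), and in all 10 genes the ranges overlapped. Sox10 differed by −0.64 (SE 0.55), and by −0.028 without Trp53ΔEC tumor 5. A missed threshold does not show that the genotypes are alike, and changes of Mitf or Ednrb larger than these errors could also have been missed. The difference of Ednrb exceeded its own error and was not called (adjusted p = 0.969, limma). The grade difference did not pass a test of its difference between genotypes for any of the 10 genes (interaction in 11 tumors, limma, 0% of all genes in either direction, and 0 of the 10 genes at an unadjusted p under 0.05).

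Likeness to the pigment genes was measured as Pearson's r with the mean of Tyr, Tyrp1, Dct, Pmel, Mlana, Oca2 and Slc45a2. Over the 20 arrays the most alike were Cfap57 (0.96), Tnp2 (0.95), Cpz (0.94), Cd209b (0.94) and Ucma (0.94). All 5 share the step between skin and tumors. Cfap57, a gene of cilia, was at 9.50 to 10.1 in skin and 6.90 to 7.73 in tumors. Mitf, with r = 0.67, ranked 1677th, Ednrb (0.53) 3062nd and Sox10 (0.19) 6638th. Over the 15 tumors alone the most alike were Has3 (0.88), Pqlc3 (0.88), E230016K23Rik (0.88), Rnf152 (0.87) and Uxt (0.86), and Mitf had an r of −0.14. The arrays share their skin-tumor step and many of these values lie near the floor, so that these are descriptions only.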

How the data were processed

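The authors hybridized total RNA of each sample to 1 Affymetrix MOE430 2.0 array, and the deposited log2 values had been background-corrected, normalized and summarized into probesets by RMA (version not given in the sources used here). RMA gives no detection call, and low values are compressed. The table holds 45101 probesets with values from 2.34 to 14.72, array medians of 5.58 to 5.75, and 1 column for each labelled sample. Here 64 control probesets were left out. Of those left, 34945 were annotated to 1 gene, 932 to more and 9160 to no gene; 204 had a gene identifier outside the RefSeq table. Per gene the probeset with the highest mean was kept (18193 genes).

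Groups were compared with limma 3.58.1 (lmFit and eBayes, two-sided, Benjamini-Hochberg over all genes) in R 4.3.3, called at an adjusted p under 0.05. The classes against skin came from 1 fit of 4 classes. On simulated data with 200 genes changed by 2 on the log2 scale, 181 were recovered for tumors against skin, 188 by grade and 168 between genotypes, of 18193 genes each. Summed levels are log2 of summed linear values. Python 3.11.15 with pandas 2.3.3, numpy 2.4.6 and matplotlib 3.10.9 did the other steps.

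The 10 genes, the companion lists and the tests were chosen with earlier results of these data known. From each companion list up to 4 genes were named per comparison, taken by size of change among called genes and then by p; S100b and Ngfr, and the genes that stand out on single arrays, were named after their values were seen. Some listed genes were not analysed here. Alternatives were the median of the probesets, array median centring, quantile normalization, a filter on dim genes, adjustment over all probesets, the methods' t-test, an unequal-variance test, trend with robust variance, a replicate block, leaving out each sample, counting mixed with undifferentiated/spindle tumors, histology as a covariate, poorly differentiated tumors only, and each genotype alone against skin. The number of arrays limits the precision.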

Additional observations from a re-analysis of the deposited data

Results flagged for a closer look

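Each gene was checked for a sample standing apart from its group by Dixon's criterion, in 6 groupings (skin, 3 classes, 2 genotypes), which makes 60 checks. Chance flags about 1 in 20 such groups, and 4 were flagged. Sox10 in Trp53ΔEC tumor 5 (10.75) stood apart in 2 groupings, from the other mixed tumors (6.30 to 6.63) and from the other Trp53ΔEC tumors (6.25 to 6.73). Mlana in skin sample 1 (8.72) stood apart from the other skin samples (5.34 to 6.28). Tyr in Trp53ΔEC tumor 6 (4.49) stood apart from the other Trp53ΔEC tumors (3.46 to 3.87), with all of these values below the floor.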

How the results depend on the processing

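In tumors against skin, the count of 7 lower melanocyte genes stayed within 1.5 times of itself under every alternative run. The 1 higher gene in poorly differentiated tumors against skin, Slc45a2, became 0 under array median centring, quantile normalization, the methods' t-test, the unequal-variance test, trend with robust variance and the replicate block, and 0 to 1 when samples were left out. In undifferentiated/spindle tumors against skin the count of higher genes went from 0 to 1, Oca2, under the methods' t-test and the unequal-variance test. By grade, the median of probesets gave 1 higher (Ednrb) and 0 lower genes, leaving out dim genes and the replicate block each gave 0 lower, and leaving out samples gave 1 to 2 lower. Tyr reversed with the median of its probesets, to 0.090 over all tumors and to 0.19 in poorly differentiated, 0.0074 in mixed and 0.042 in undifferentiated/spindle tumors. Sox10 in mixed tumors ranged from −0.86 to 0.63 when samples were left out, and reversed without Trp53ΔEC tumor 5. The cause was not tested. In all, 339 of 360 counts equalled the main count or lay within 1.5 times of it. Of 1784 single-gene values, 1666 kept their direction and side of the threshold. Centring each array on its median moved the median of all genes from 0.0012 to −0.10 in poorly differentiated and from −0.0053 to −0.12 in mixed tumors against skin. Of 17 pairs of samples of equal replicate number, 3 correlated above 0.1 in their deviations from the group means (−0.48 to 0.64). The highest were the tumors numbered 6 (0.64), both poorly differentiated, and those numbered 1 (0.63), both spindle cell carcinomas. These deviations also carry histology, so they cannot show whether equal numbers pair the samples. Values near the floor limit Tyr, Oca2, Tyrp1 and Mlana.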

Other observations

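Trp53ΔEC tumor 5, chosen for its Sox10 level after the values were seen, differed from the 19 other arrays in more genes. Those by which it exceeded every other array most were Foxa1 (9.56 against up to 4.51), Pigr (8.64 against 4.38), Cldn7 (11.04 against 6.91), Foxi1 (9.10 against 4.98) and Csn3 (11.8 against 7.75). Foxa1 encodes a forkhead factor of many glandular epithelia, Pigr the receptor that carries antibodies across secretory epithelia, Cldn7 a tight junction protein and Csn3 the milk protein kappa-casein. Myb followed at 11.3 (others up to 7.36), and Sox10 and Kit ranked 21st and 22nd by the same gap. It is a single tumor, and no test was made.

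In skin sample 1, chosen for its Mlana level in the same way, Defb8, a beta-defensin gene, exceeded every other array most (7.79 against up to 3.55), and Mlana came next, followed by Pla2g5 (8.48 against 6.35). The bulge keratin gene Krt15 there was at 13.8, as in the other skin samples.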
